A study of Mus musculus with 12 samples.

Results

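The genes described here are 7 subunits of the GABA-A receptor: Gabra2, Gabra3, Gabra4, Gabra5, Gabrb1, Gabrb2 and Gabrd. They were taken by gene name from an expression table with 55678 names, and all 7 were measured in every library and passed the filter on low values. GABA-A receptors are chloride channels opened by GABA, the main inhibitory transmitter of the cortex. Each receptor is a ring of subunits, usually of alpha and beta type together with a gamma or a delta subunit, and the alpha subunit shapes where the receptor sits and how it responds to benzodiazepines. Gabra2 encodes the alpha subunit found on the axon initial segment and at many synapses of cortical pyramidal cells, and C57BL/6J mice are known to carry an intronic variant that lowers its expression.

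RNA was sequenced from the medial prefrontal cortex of 12 mice of 2 inbred strains, 3 in each of 4 groups. The strain C57BL/6JmsSlc is called B6 here (the series title names it C57BL/6J), and BALB/cCrSlc is called BALB/c. Whether these B6 mice carry the intronic Gabra2 variant known from C57BL/6J was not examined. In each strain, mice either underwent chronic restraint stress (CRS), 6 h a day for 21 days, or were handled without restraint as controls. All were 9 to 10 weeks old and sampled with a 1.5 mm punch after behavioural tests, and neither sex, litter nor batch is given. Libraries are named by strain, treatment and the number in the sample title. The question for these genes is whether their levels differ between the strains and whether CRS moved them. Values are TPM, a transcript level corrected for length and scaled to a common library total, so levels of different genes can be compared. Read depth is therefore unknown, and error here means the spread between libraries.

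The alpha subunits are related in sequence, and a stretch of 53 coding bases shows how far reads of one can be told from those of another. In Gabra2 it runs from exon 4 (chr5:71034730-71034750) into exon 5 (chr5:71014605-71014636) on the minus strand of GRCm38. Sequences are from GENCODE M21 transcripts, written 5′ to 3′, and capitals mark bases that differ from Gabra2.
Gabra2: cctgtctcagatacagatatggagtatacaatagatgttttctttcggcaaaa
Gabra3: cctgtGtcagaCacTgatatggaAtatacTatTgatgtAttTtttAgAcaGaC
Gabra4: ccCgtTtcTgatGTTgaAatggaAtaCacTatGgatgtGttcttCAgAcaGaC
Gabra5: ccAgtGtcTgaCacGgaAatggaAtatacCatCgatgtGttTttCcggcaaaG
In this stretch Gabra3 differed from Gabra2 at 12 bases, Gabra5 at 13 and Gabra4 at 17. Over the whole coding sequence, identity to Gabra2 was 73.8% for Gabra3, 71.3% for Gabra5 and 68.3% for Gabra4. The longest run these 3 shared with Gabra2 was 20 bases, in Gabra3 and in Gabra5. Of the 7524 different 31-base words in Gabra2 transcripts, 96 occurred in any other gene and 0 of the coding ones did. These are reference sequences, and no strain difference in sequence was examined.

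Gabra2 was higher in BALB/c than in B6, in controls and after CRS alike. In B6, control libraries 2, 3 and 9 held 21.3, 23.2 and 18.2 TPM, and CRS libraries 12, 13 and 14 held 21.4, 19.7 and 27.7 TPM. In BALB/c, control libraries 5, 9 and 10 held 59.2, 38.3 and 57.3 TPM, and CRS libraries 12, 13 and 15 held 49.4, 63.8 and 65.0 TPM. All 6 BALB/c libraries lay above all 6 B6 libraries, and the lowest BALB/c value, in control 9, still exceeded the highest B6 value, in CRS 14. The mean over both treatments was 21.9 ± 3.31 TPM (SD, n = 6) in B6 and 55.5 ± 10.1 TPM (SD, n = 6) in BALB/c, a ratio of 2.53.

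The strain difference of Gabra2 passed the test in each treatment. On the log2(TPM + 1) scale, BALB/c minus B6 was 1.25 in controls (SE 0.19, limma adjusted p = 0.00165) and 1.34 after CRS (SE 0.19, limma adjusted p = 0.00094). Averaged over treatment it was 1.29 (95% interval 1.01 to 1.58, limma adjusted p = 3.71e-05), the rank 199 by p of the 16423 genes tested. A gene is called when its Benjamini-Hochberg adjusted p over all tested genes is under 0.05. Gabra2 was the 1 member of 7 called in each of these comparisons, where 4.73% of all tested genes were called in controls, 7.7% after CRS and 18.4% in the average. Called higher in BALB/c were 1.36%, 2.37% and 4.05% of tested genes. In 2.01% of tested genes all 6 BALB/c libraries lay above all 6 of B6, as for Gabra2. In the average, 1 of 7 members is no larger a share than that of all genes called in either direction.

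**Figure D1:**
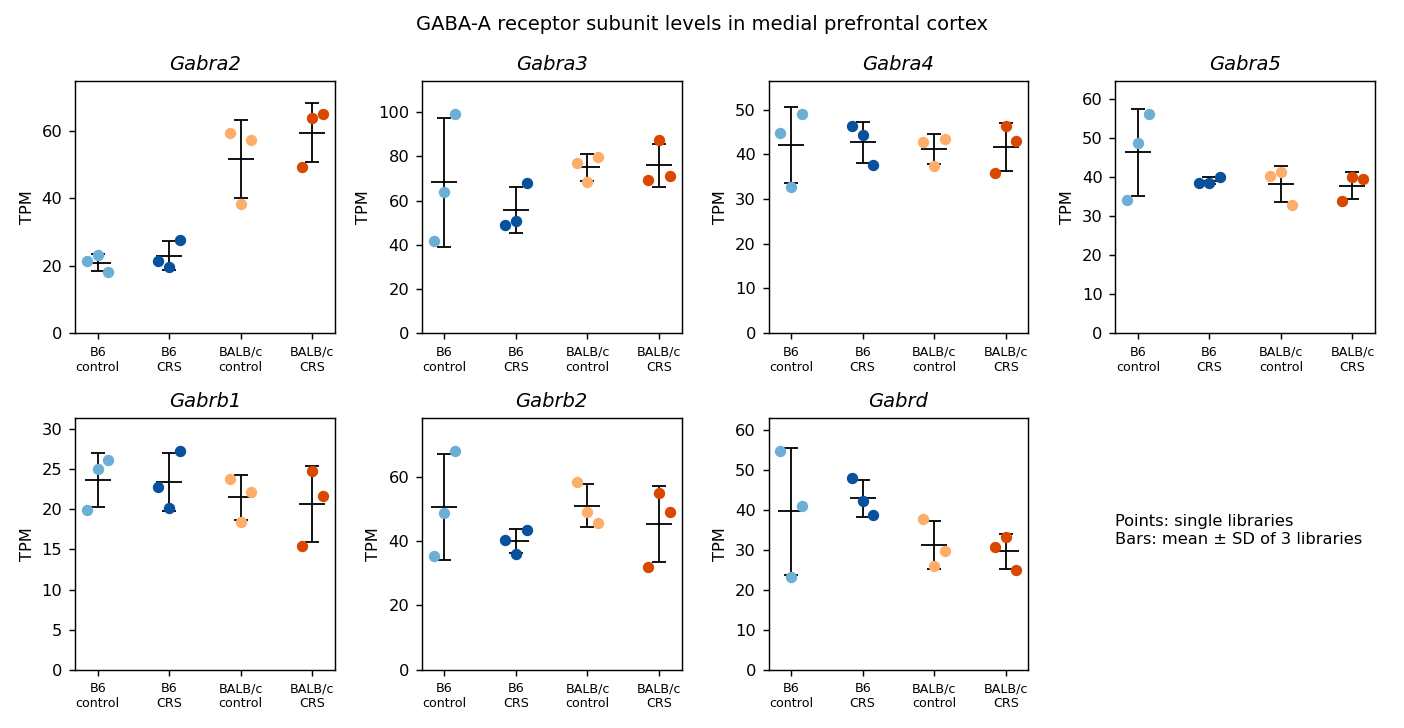
TPM of the 7 subunit genes in each library (points), with the mean and SD of 3 libraries per group (bars), for B6 and BALB/c controls and CRS mice. The Gabra2 points of BALB/c, 38.3 to 65.0 TPM, all lie above those of B6, 18.2 to 27.7 TPM, while the groups of Gabra4, Gabra5, Gabrb1 and Gabrb2 overlap.

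The 6 rows of the table that carry the name Gabra2, apparently 1 per transcript, did not all follow the sum. The row listed first held 7.46 to 14.1 TPM in B6 and 21.2 to 35.3 TPM in BALB/c, and the row listed next held 7.43 to 11.1 TPM in B6 and 15.3 to 27.2 TPM in BALB/c. Together these 2 rows carried most of the gene in both strains, with 48.3% and 41.5% of its TPM in B6. One minor row ran the other way, with 0.515 to 1.72 TPM in B6 and 0 to 0.473 TPM in BALB/c. The remaining minor rows had higher means in BALB/c, and all minor rows lay near the floor. Which transcript each row stands for is not named in the table, and these row values were not tested.

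In B6, Gabra2 had the lowest mean of the 7 members, below Gabrb1 at 23.5 TPM by less than their spread. In BALB/c only Gabra3 at 75.5 ± 7.33 TPM had a higher mean than Gabra2, and Gabrb2 at 48.2 ± 9.23 TPM came next, within the spread of Gabra2.

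Among Gabra3, Gabra4 and Gabra5, none passed the test for strain. Gabra3, a subunit enriched in deep cortical layers and brainstem, held 41.5, 63.9 and 99.3 TPM in B6 controls 2, 3 and 9 and 49.0, 50.7 and 68.0 TPM in B6 CRS 12, 13 and 14. In BALB/c it held 77.0, 68.3 and 79.8 TPM in controls and 69.4, 87.3 and 71.1 TPM in CRS libraries. The highest and the lowest value were both B6 controls, so the strains overlapped among controls, while after CRS all 3 BALB/c libraries lay above the 3 of B6, a separation in either direction seen in 29.3% of tested genes. Gabra3 was 0.33 higher in BALB/c on the log2 scale (95% interval -0.05 to 0.71, limma adjusted p = 0.215). Without B6 control 9 the difference was 0.49 and was called (limma adjusted p = 0.0196).

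Gabra4, an alpha subunit that pairs with delta outside synapses, ranged from 32.6 to 49.1 TPM in B6 and from 35.8 to 46.3 TPM in BALB/c. Its log2 difference was -0.03 (95% interval -0.27 to 0.22, limma adjusted p = 0.903), and 0.068 after median-of-ratios scaling. Gabra5, best known from extrasynaptic receptors of the hippocampus, ranged from 34.2 to 56.3 TPM in B6 and from 33.0 to 41.4 TPM in BALB/c, a difference of -0.15 (95% interval -0.40 to 0.10, limma adjusted p = 0.400). Both genes had overlapping strains. Gabra5 lies across the antisense gene Gm9962 on the opposite strand, and whether strand was used in quantification is not given in the sources used here, so its level is uncertain.

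The beta subunits form the GABA site together with alpha. Gabrb1 held 19.9 to 27.3 TPM in B6 and 15.5 to 24.8 TPM in BALB/c, a log2 difference of -0.16 (95% interval -0.44 to 0.12, limma adjusted p = 0.424). Gabrb2 held 35.3 to 68.2 TPM in B6 and 32.0 to 58.6 TPM in BALB/c, a difference of 0.10 (95% interval -0.26 to 0.46, limma adjusted p = 0.722). The strains overlapped for both. The highest Gabrb2 value was in B6 control 9, the library that was also highest for Gabra3 and Gabra5. Gabrb1 overlaps Gabra4 at their starts on opposite strands of chromosome 5. Of their 13808 and 6136 different 31-base words, however, 0 occurred in any other gene on either strand, against 124 of 2947 for Gabra5.

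Gabrd encodes the delta subunit of extrasynaptic receptors that carry tonic inhibition. It held 54.9, 23.2 and 41.1 TPM in B6 controls 2, 3 and 9 and 47.9, 42.3 and 38.7 TPM in B6 CRS 12, 13 and 14. In BALB/c it held 37.9, 25.9 and 29.9 TPM in controls and 30.8, 33.4 and 24.9 TPM in CRS libraries. B6 controls spanned both the highest and the lowest value of the 12. After CRS the BALB/c libraries all lay below those of B6, a separation in either direction seen in 29.3% of tested genes. The averaged log2 difference was -0.40 (95% interval -0.79 to -0.01), which missed the threshold (limma adjusted p = 0.147). Without B6 control 3 it was -0.57 and was called (limma adjusted p = 0.015).

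**Figure D2:**
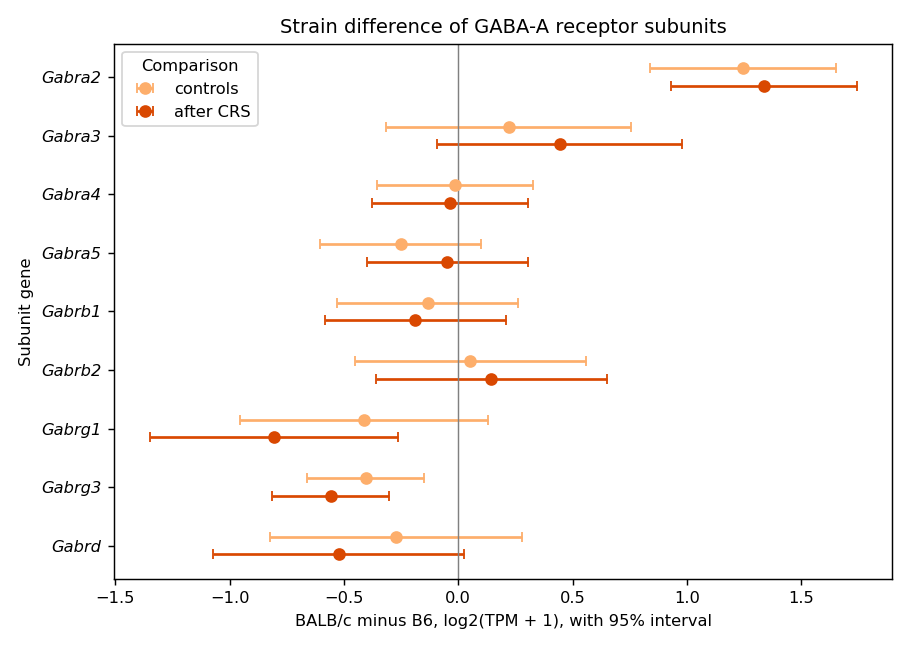
BALB/c minus B6 on the log2(TPM + 1) scale for the 7 members, Gabrg1 and Gabrg3, with 95% intervals, in controls and after CRS. Gabra2 stands at 1.25 and 1.34, and Gabrg3 after CRS at -0.56, while most other intervals cross 0.

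No member was called for CRS in either strain. Gabra2 differed by 0.12 between CRS and control in B6 (95% interval -0.28 to 0.53, limma adjusted p = 1) and by 0.21 in BALB/c (95% interval -0.19 to 0.62, limma adjusted p = 1). The difference between those effects was 0.09 (95% interval -0.48 to 0.67, limma adjusted p = 1.0), so a strain-dependent change of Gabra2 within these bounds could not be seen with 3 libraries a group. Over all 7 members, log2 differences lay between -0.29 and 0.19 in B6, between -0.20 and 0.21 in BALB/c, between -0.24 and 0.17 averaged over strains, and between -0.25 and 0.22 for the interaction. The lowest averaged value was that of Gabrb2, -0.24 (95% interval -0.60 to 0.11, limma adjusted p = 0.960), and it was -0.13 without B6 control 9 or without BALB/c CRS 12 and -0.0013 with a replicate block. In each of these 4 comparisons limma called 0 members, 0 were under an unadjusted p of 0.05, and of all tested genes 0% were called in B6, 0.00609% in BALB/c, 0.00609% in the average and 0% for the interaction.

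The table holds 12 further GABA-A subunits, of which 5 passed the filter. Gabrg3, a rarer gamma subunit, was lower in BALB/c, with 7.49 to 8.72 TPM in B6 and 4.76 to 5.90 TPM in BALB/c. The strains did not overlap, as in 6.94% of tested genes with BALB/c below, and the averaged log2 difference was -0.48 (limma adjusted p = 0.0022); after CRS it was -0.56 (limma adjusted p = 0.0142), and in controls it was not called. Gabrg1, which lies next to Gabra2, was lower as well, with 8.09 to 17.7 TPM in B6 and 5.18 to 8.10 TPM in BALB/c, a difference of -0.61 (limma adjusted p = 0.0325). This call was lost without any single one of 7 libraries (B6 control 2 or 3, B6 CRS 12 or 14, BALB/c control 5 or 10, BALB/c CRS 12), with adjusted p-values up to 0.0786. Gabra6 and Gabrp were listed at 0 in all libraries, and Gabre, Gabrq and the rho subunits Gabrr1, Gabrr2 and Gabrr3 were below the filter.

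Of 9 genes for GABA synthesis, packaging, uptake and breakdown, 4 were lower in BALB/c in the averaged comparison and 0 higher, where 14.3% of all tested genes were called lower and 4.05% higher. Their median log2 difference was -0.23, beside -0.08 for all tested genes. Abat, the enzyme that breaks down GABA, held 83.3 to 135 TPM in B6 and 51.5 to 80.6 TPM in BALB/c. Its strains did not overlap, as in 6.94% of tested genes with BALB/c below. The averaged log2 difference was -0.68 (limma adjusted p = 0.0038), and it was -0.76 after CRS (limma adjusted p = 0.027). Slc32a1, the vesicular GABA transporter, fell by 0.87 (limma adjusted p = 0.016), and the synthesis enzymes Gad2 and Gad1 fell by 0.75 and 0.50 (limma adjusted p = 0.0225 and 0.0309), all with overlapping strains. Both calls were lost when B6 CRS 12, BALB/c control 10 or BALB/c CRS 12 was left out, and that of Gad1 also without B6 control 2, B6 CRS 14 or BALB/c control 9 (limma adjusted p up to 0.0764 for Gad1 and 0.0562 for Gad2).

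Of 25 genes for receptor clustering, assembly and trafficking, 1 was higher and 3 were lower in BALB/c, with a median of -0.03 beside -0.08 for all tested genes. These 4 of 25 are a share close to the 18.4% of all tested genes called in either direction, so the count says nothing particular about the list. Insyn2a, an inhibitory synapse protein, was higher by 0.38 (limma adjusted p = 0.014) and after CRS by 0.64 (limma adjusted p = 0.0124). It held 3.05 to 3.78 TPM in B6 CRS mice and 5.84 to 5.98 TPM in BALB/c CRS mice, while controls overlapped. Such a separation after CRS, in either direction, was seen in 29.3% of tested genes. Trak2, a transport adaptor, differed by -0.49 (limma adjusted p = 0.0129), Gabarap, which binds gamma subunits, by -0.21 (limma adjusted p = 0.0168) and the anchoring protein Rdx by -0.34 (limma adjusted p = 0.0472). Gabarap lost its call after median-of-ratios scaling (-0.12, limma adjusted p = 0.18), and Rdx lost its call there (-0.24, limma adjusted p = 0.0754) and on leaving out B6 control 2 or 3, any B6 CRS library, BALB/c control 5 or 10, or BALB/c CRS 12.

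Of 4 chloride transporters, 2 were lower in BALB/c and 0 higher, where 14.3% of all tested genes were called lower and 4.05% higher. Slc12a2, the transporter that brings chloride into cells, held 15.0 to 32.2 TPM in B6 and 7.76 to 15.1 TPM in BALB/c, a difference of -0.93 (limma adjusted p = 0.0106). Slc12a7 differed by -0.64 (limma adjusted p = 0.0378), a call that was lost on leaving out any library other than B6 control 3 and B6 CRS 12. Of 6 genes for GABA-B receptors and their partners, Gabbr2, a receptor subunit, was higher by 0.61 (limma adjusted p = 0.0368), and Kctd8, an auxiliary subunit, was lower by 0.86 (limma adjusted p = 0.0151). The Gabbr2 call was lost on leaving out any library other than B6 control 9, B6 CRS 14 and BALB/c control 9. Between CRS and control, limma called 0 genes of these 4 lists in either strain. At an unadjusted p under 0.05 it gave, in B6, 2 genes of the synthesis list, 1 of the clustering list and 1 of the GABA-B list, and in BALB/c 1 of the synthesis list, where 792 of all 16423 tested genes were under it in B6 and 497 in BALB/c.

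Libraries differed in markers of striatal neurons, myelin, astrocytes and microglia. The markers of the labelled cortex were present, with all 10 excitatory cortical neuron genes above 0 in every library. Of 14 striatal medium spiny neuron genes, 14 were lower in BALB/c in the average, 11 after CRS and 0 in controls. Their summed level was 248 to 3062 TPM in B6 controls, 1102 to 2548 TPM in B6 CRS mice, 160 to 440 TPM in BALB/c controls and 170 to 220.4 TPM in BALB/c CRS mice, and only Isl1 was listed at 0 in some library. The 10 myelin genes summed to 2598 to 9961 TPM in B6 and 491 to 3168 TPM in BALB/c. The 9 astrocyte genes summed to 1189.7 to 1373 TPM in B6 and 865 to 1049.6 TPM in BALB/c, and the 9 microglia genes to 362 to 459 TPM and 314 to 350.5 TPM, both without overlap. In the average, 3 astrocyte and 4 microglia genes were lower and 0 higher. Of all tested genes, 14.3% were called lower and 4.05% higher in the average. In either direction, 7.7% were called after CRS and 4.73% in controls. Taken singly, 6.94% of tested genes had all BALB/c libraries below all of B6. Of the 11 interneuron genes, 3 were higher in BALB/c and 0 lower, while Gad1, Gad2 and Slc32a1 were lower, and of the excitatory genes 3 were higher and 1 lower. Of 7 tested choroid plexus and meninges genes, 3 were lower and 0 higher. The part of astrocytes, microglia, interneurons and excitatory neurons in the differences of the GABA genes was not tested. In bulk tissue, fewer cells of a type and less RNA per cell cannot be told apart. BALB/c CRS 12 also stood apart with 3.97% of its TPM in the ribosomal gene Rn18s-rs5, against 0.0307% to 0.169% in the other 11.

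The members lay differently along the striatal score, the mean log2(TPM + 1) of those 14 genes. B6 control 9 had a score of 2.80, within the BALB/c range of 2.64 to 3.83, and held the lowest Gabra2 of all 12 libraries, 18.2 TPM. B6 control 2, at the highest score of 6.40, held 21.3 TPM. Gabra3 showed the reverse pairing, with its highest value in B6 control 9 and its lowest in B6 control 2, and Gabrd had its highest value in B6 control 2. Among the BALB/c libraries, control 9 had the highest striatal score, 3.83, and the lowest Gabra2, 38.3 TPM. These pairings rest on single libraries, and a link of Gabra2 with the score within strains was not tested. With the striatal score as a covariate the Gabra2 difference was 1.23 after CRS (limma adjusted p = 0.092), and with the myelin score it was 1.08 in controls and 1.17 after CRS (limma adjusted p = 0.066 and 0.0536), none of them called, while the averaged difference stayed called with either score.

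**Figure D3:**
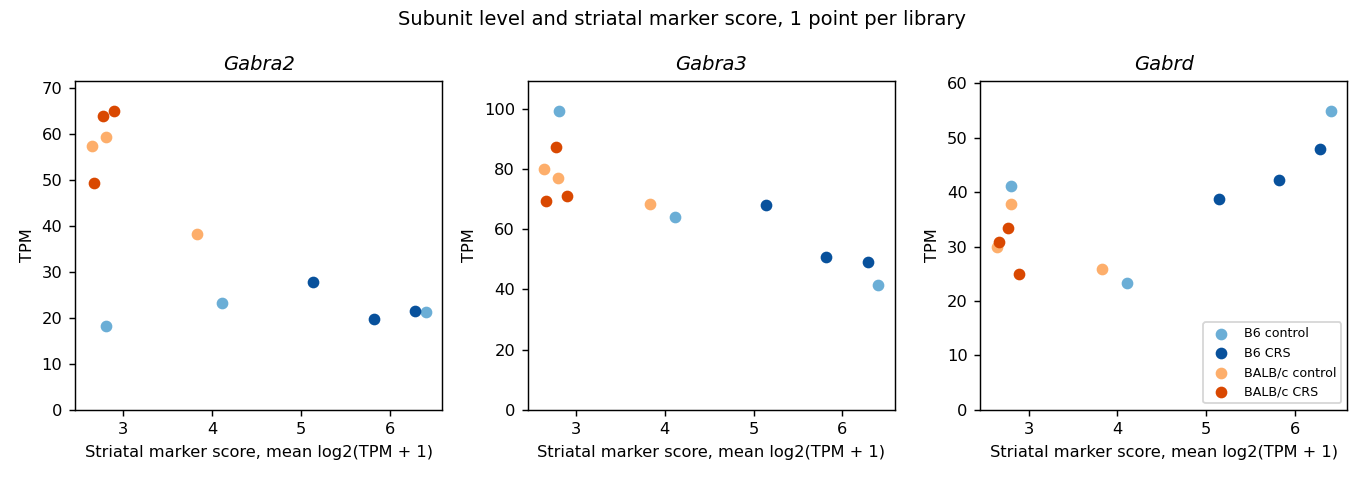
TPM of Gabra2, Gabra3 and Gabrd (vertical axes) against the striatal marker score of the same library (horizontal axes, mean log2(TPM + 1) of 14 genes), 1 point per library. In the Gabra2 panel the B6 control at a score of 2.80 sits at 18.2 TPM, below every BALB/c library. The BALB/c control at a score of 3.83, the highest of BALB/c, sits at 38.3 TPM, the lowest of BALB/c.

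The averaged calls of Gabrg1, Gabrg3 and the 12 called genes of the 4 other lists were lost with either score as a covariate, as were those of the neighbours Gnpda2, Gm42653, Gm34144, Slain2 and Fryl described next. For several of them the difference itself stayed near its size without a covariate. With the striatal and the myelin score, Gabrg3 was at -0.49 and -0.42, Fryl at -0.56 and -0.62, Slc12a7 at -0.83 and -0.68 and Gm34144 at 1.20 and 1.12. Others came close to 0 with at least one score, Slc12a2 at -0.24 and -0.025, Rdx at -0.15 and -0.015 and Kctd8 at -0.11 and -0.18. Over all alternatives, the differences ran from -0.88 to -0.22 for Slc32a1, -0.76 to -0.23 for Gad2 and -0.50 to -0.30 for Gad1. Gabbr2 changed sign with the striatal score, to -0.14, and was at 0.11 with the myelin score. The calls of Gabrg1, Gad1, Gad2, Rdx, Slc12a7 and Gabbr2 were also lost without the filter on low values.

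Gabra2 sits in a cluster of subunit genes on chromosome 5 of GRCm38, at chr5:70957597-71095849 on the minus strand, with Gabrg1 on one side and Gabra4 and Gabrb1 on the other. Within 2 Mb of it, 18 of 62 annotated genes were tested, and in the averaged comparison 2 besides Gabra2 were higher in BALB/c and 5 lower, where 4.05% of all tested genes were called higher and 14.3% lower. The cluster genes Gabra4 and Gabrb1, 474 and 562 kb away, were not called, and Gabrg1, 115 kb away, was lower. Gm42653, an unclassified transcript, was higher by 0.59 (limma adjusted p = 0.0063) at 0.506 to 1.07 TPM in B6 and 1.32 to 1.94 TPM in BALB/c. Gm34144, a processed pseudogene, was listed at 0 in all B6 libraries and at 0 to 5.11 TPM in BALB/c. Both genes lie near the floor and passed the filter only through their BALB/c libraries. Their calls as higher in BALB/c therefore follow in part from the filter and are no support for a local strain difference.

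The genes called lower near Gabra2 were, beside Gabrg1 and Kctd8, Gnpda2, a sugar phosphate enzyme, Slain2, a microtubule protein, and Fryl. Their log2 differences were -0.38, -0.35 and -0.51 (limma adjusted p = 0.01, 0.0193 and 0.0128), smaller than that of Gabra2. Gnpda2 lost its call after median-of-ratios scaling (-0.29, limma adjusted p = 0.0612). In controls alone only Gm34144 was called in this window besides Gabra2, and after CRS Gm42653 (0.71, limma adjusted p = 0.029) and Fryl (-0.63, limma adjusted p = 0.0457).

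**Figure D4:**
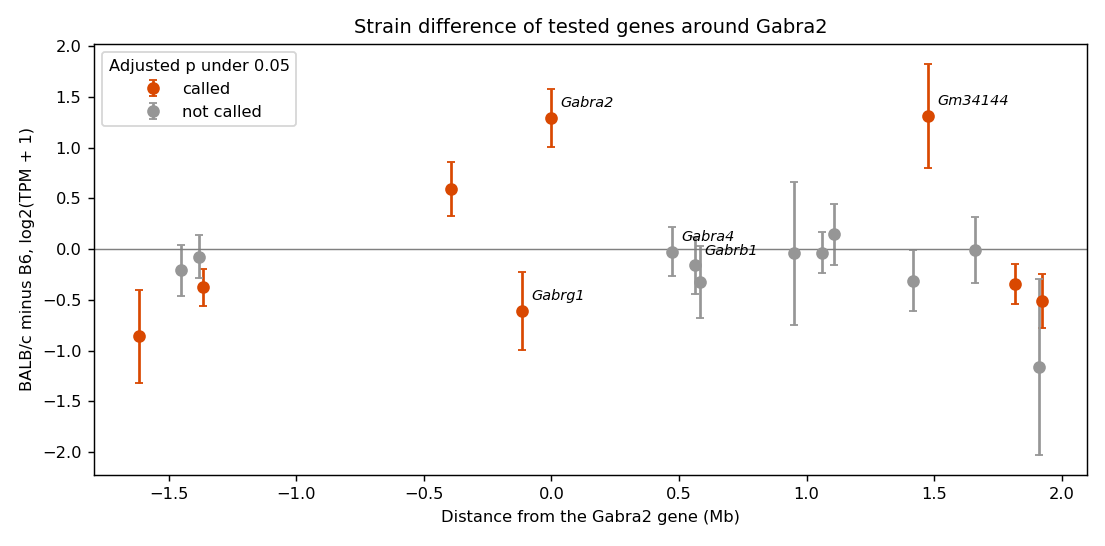
BALB/c minus B6 averaged over treatment, log2(TPM + 1) with 95% intervals, for Gabra2 and the tested genes within 2 Mb, by distance from the Gabra2 gene. Gabra2 at 1.29 is called, the cluster members Gabra4 at -0.03 and Gabrb1 at -0.16 are not, and Gabrg1 at -0.61 lies on the other side of 0.

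The promoters of Gabra2 and Gabra4 are shown because Gabra2 was called for strain and Gabra4, in the same cluster, was not. Both are the 250 bases before the start site, on the minus strand, from RefSeq (GRCm38.p6), at chr5:71095850-71096099 and chr5:71658309-71658558. Capitals mark the motifs CCAAT and GGGCGG on either strand.
Gabra2: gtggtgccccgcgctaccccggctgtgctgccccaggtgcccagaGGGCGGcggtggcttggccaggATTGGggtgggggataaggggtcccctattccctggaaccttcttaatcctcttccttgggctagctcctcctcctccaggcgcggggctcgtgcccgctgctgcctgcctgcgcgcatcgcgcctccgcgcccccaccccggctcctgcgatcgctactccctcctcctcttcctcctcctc
Gabra4: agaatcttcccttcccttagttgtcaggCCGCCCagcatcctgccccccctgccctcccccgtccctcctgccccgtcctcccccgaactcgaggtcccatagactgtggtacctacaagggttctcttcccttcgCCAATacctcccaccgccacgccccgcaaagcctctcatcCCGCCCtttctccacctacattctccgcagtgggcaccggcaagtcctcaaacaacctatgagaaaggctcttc
The Gabra2 window holds 1 CCAAT and 1 GGGCGG, and that of Gabra4 holds 1 and 2. Of 32851 mouse promoter windows of this length, 33.85% hold CCAAT and 32.74% GGGCGG. Neither window holds TATAAA or the cAMP response motif TGACGTCA, found in 12.37% and 1.546% of windows. The matches are a description of the reference sequence, and no strain difference in these windows was examined.

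Within strains, the gene whose level followed Gabra2 most closely over the 12 libraries was Mtss2, with r = 0.967 after each strain mean was subtracted. Hspa2, a chaperone, Dbn1, an actin-binding protein of dendritic spines, Rfx3, a transcription factor, and Cinp came next, at 0.957, 0.950, 0.945 and 0.943. None of them is a GABA gene of the lists. The closest gene was Tuba4a for Gabra3 (0.988), Pknox1 for Gabra4 (0.891), Rwdd2a for Gabra5 (0.953), Rbfox2 for Gabrb1 (0.979), Cab39 for Gabrb2 (0.964) and Car11 for Gabrd (0.930). These are the top values among 10486 genes and share the same libraries and fixed totals, so they are given as a description.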

How the data were processed

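RNA of 12 libraries was analysed as TPM, which the authors deposited in 1 table of 147902 rows with gene names. The unit was read from column totals of 1000000, since the labels do not name it. The submitters' processing notes name cutadapt 2.9, Salmon and GRCm38, and the labels' protocols a stranded mRNA kit; the strand setting is not given in the sources used here. TPM keeps no depth. Rows were summed per gene name. A gene was tested if 3 or more libraries reached 1 TPM (16423 genes), on log2(TPM + 1), which understates changes of low genes, with limma 3.58.1 under R 4.3.3 (4 group means, 12 libraries, intensity trend), after a check on simulated data. P-values measure the spread between these samples, which the protocols describe as mice.

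The members and gene lists were chosen with earlier results of these data known. By rule, the text names every member, up to 6 called GABA genes a contrast by adjusted p, called genes within 2 Mb of Gabra2, and the genes most like each member (up to 5 for Gabra2, 3 for the others, of which the first is printed), by Pearson r among genes with a mean of at least 5 TPM and a regular symbol. Gad1, Gad2, Slc32a1, Gabarap, Rdx, Slc12a7 and Gabbr2, the subunits below the filter and the contrary Gabra2 row were named after their values were seen. Alternatives were the pseudocounts 0.1 and 0.5, no filter, a mean of at least 5 TPM, median-of-ratios scaling, leaving out mitochondrial, Bc1 and Rn18s transcripts, a replicate block, the striatal or the myelin score as a covariate, and leaving out each library. Coding identity was computed with Biopython 1.88 on GENCODE M21. Some other subunits, and the share of Gabra2 among alpha subunits, are not reported here.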

Additional observations from a re-analysis of the deposited data

How the results depend on the processing

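Depth is unknown, so counting error cannot be given, and 3 libraries a group limit what could be seen. The averaged Gabra2 difference was called in all alternatives run, at 1.12 to 1.38, and at 1.24 to 1.39 without a library. The count of members called became 0 in controls with the myelin score and 0 after CRS with the striatal or the myelin score; in the average it was 1 to 2 without a library. The averaged difference changed sign for Gabra3 with the striatal (-0.37) and myelin (-0.14) scores, for Gabrb2 likewise (-0.35 and -0.0088), for Gabbr2 with the striatal score (-0.14), and for Gabra4 with median-of-ratios scaling (0.068) and without mitochondrial, Bc1 and 18S transcripts (0.049). Over the alternatives, the averaged difference ran from -0.46 to -0.057 for Gabra5, -0.44 to -0.070 for Gabrb1 and -0.41 to -0.15 for Gabrd, and without a library from -0.25 to -0.075, -0.23 to -0.069 and -0.57 to -0.26. Without a library, Gabra4 ranged from -0.11 to 0.033, Gabrb2 from -0.017 to 0.22, the CRS effect on Gabra2 in B6 from -0.016 to 0.22 and its interaction from -0.11 to 0.23; the cause was not tested.

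Over all genes, averaged calls were 665 higher and 2356 lower, and 1474 and 1724 with median-of-ratios scaling, which moved the median of all genes in controls from -0.10 to 0.0043, and 1280 and 1886 without mitochondrial, Bc1 and 18S transcripts. They were 379 and 1550 with a mean of at least 5 TPM, 176 and 348 with the striatal score and 155 and 218 with the myelin score. Without a library, averaged calls ranged from 476 to 1061 higher (1061 without B6 control 9) and from 1496 to 2726 lower (1496 without BALB/c control 10). Calls after CRS, 389 higher and 875 lower, ranged from 212 to 529 and from 319 to 1302, and were 212 and 327 without B6 CRS 12, 280 and 461 without B6 CRS 13, 287 and 319 without BALB/c CRS 12, 216 and 454 without BALB/c CRS 13 and 248 and 551 without BALB/c CRS 15. In controls, 224 and 553 became 343 and 1035 without B6 control 9, 170 and 325 without B6 control 2, 172 and 333 without B6 control 3, 161 and 336 without BALB/c control 5 and 157 and 268 without BALB/c control 10. For the numbers shared between strains (9, 12 and 13), deviations from group means correlated at -0.242, -0.029 and -0.036. Each value rests on a single pair of libraries, so it cannot decide whether a shared number pairs them. With a replicate block, Gabra2 stayed at 1.29 (limma adjusted p = 2.97e-05), and Gad1, Rdx and Gabbr2 lost their calls.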
